A study of Homo sapiens with 6 samples.

Results

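Promoter counts of chromatin recovered with an antibody to NuMA were set against sheared input chromatin, which had been through no pull-down. All 19957 promoter windows of the deposited count table were taken, and 4 of the 6 ChIP-seq libraries entered the comparison. These were NuMA ChIP libraries 1 and 2, the input of the NuMA arm and the input of the IgG arm, and the 2 IgG pull-down libraries stayed out of it. All libraries came from wild-type MRC5, an established human lung fibroblast line, and no treatment is given in their labels. Each arm has 1 input library, so the 2 inputs served together as replicates of sheared chromatin. Whether libraries of a group came from separate cultures is not said in the labels. The p-values here measure only the spread between these libraries, which may be technical and which the test pools largely over windows. The question asked of them was where along the genome NuMA, also called TDIF by the submitters, is bound. Input had no pull-down and the IgG pull-downs stayed out, so recovery common to any pull-down cannot be told apart from NuMA binding here.

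NuMA is a large coiled-coil protein that sits in the nucleus between divisions and gathers at the spindle poles in mitosis, where it links dynein to microtubule minus ends. In chromatin immunoprecipitation, DNA crosslinked to a protein is recovered with an antibody and sequenced, and input is the same sheared chromatin without the antibody step. Input therefore carries the unevenness that comes from shearing, amplification and mapping. Promoters in GC-rich stretches with many CpG dinucleotides, called CpG islands, belong mostly to housekeeping and developmental genes, while CpG-poor promoters belong mostly to tissue-restricted genes.

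Among called windows with at least 30 counts in each library of the higher group, the promoters of the 3 largest differences in each direction that had a RefSeq sequence are shown first, because base composition differed between higher and lower windows, as described below. Each runs from 250 bases before to 50 bases after the RefSeq gene start on GRCh38.p14, 5′ to 3′ on the gene's strand, and capitals mark CG dinucleotides. The 3 higher ones were SPAG6 (chr10:22345246-22345545, plus strand), RAB6D (chr2:131364119-131364418, minus strand) and CNKSR2 (chrX:21374168-21374467, plus strand). The 3 lower ones were LAMB3 (chr1:209652376-209652675, minus strand), RPL32 (chr3:12841533-12841832, minus strand) and CSTF2T (chr10:51699546-51699845, minus strand).
SPAG6: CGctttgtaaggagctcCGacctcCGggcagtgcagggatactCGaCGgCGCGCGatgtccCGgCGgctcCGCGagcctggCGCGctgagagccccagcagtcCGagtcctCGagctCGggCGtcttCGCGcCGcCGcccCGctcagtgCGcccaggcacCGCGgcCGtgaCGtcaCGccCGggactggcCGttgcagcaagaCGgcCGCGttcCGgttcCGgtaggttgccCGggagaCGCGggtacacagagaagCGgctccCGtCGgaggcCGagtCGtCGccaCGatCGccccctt
RAB6D: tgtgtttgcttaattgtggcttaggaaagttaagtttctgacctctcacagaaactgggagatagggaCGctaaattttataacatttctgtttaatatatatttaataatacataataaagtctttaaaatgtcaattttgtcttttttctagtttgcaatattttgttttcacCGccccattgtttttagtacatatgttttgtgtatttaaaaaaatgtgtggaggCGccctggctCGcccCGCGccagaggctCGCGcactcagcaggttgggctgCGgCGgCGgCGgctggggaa
CNKSR2: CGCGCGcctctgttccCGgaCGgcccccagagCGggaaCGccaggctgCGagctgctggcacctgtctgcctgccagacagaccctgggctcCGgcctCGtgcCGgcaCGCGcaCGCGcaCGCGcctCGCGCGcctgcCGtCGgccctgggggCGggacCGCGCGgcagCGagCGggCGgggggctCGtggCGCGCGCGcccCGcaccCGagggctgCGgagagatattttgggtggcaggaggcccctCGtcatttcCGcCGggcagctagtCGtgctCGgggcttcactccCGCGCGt
LAMB3: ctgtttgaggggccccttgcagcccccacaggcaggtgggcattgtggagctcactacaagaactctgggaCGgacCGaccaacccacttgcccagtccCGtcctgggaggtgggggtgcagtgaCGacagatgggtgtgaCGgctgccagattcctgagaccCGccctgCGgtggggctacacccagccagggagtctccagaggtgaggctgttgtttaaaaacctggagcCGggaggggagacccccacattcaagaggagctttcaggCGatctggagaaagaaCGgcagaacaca
RPL32: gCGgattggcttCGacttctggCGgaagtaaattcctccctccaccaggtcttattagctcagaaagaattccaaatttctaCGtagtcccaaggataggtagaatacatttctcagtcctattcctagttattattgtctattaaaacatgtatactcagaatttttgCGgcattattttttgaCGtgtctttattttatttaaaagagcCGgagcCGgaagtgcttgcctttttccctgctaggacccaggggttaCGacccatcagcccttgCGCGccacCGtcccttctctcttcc
CSTF2T: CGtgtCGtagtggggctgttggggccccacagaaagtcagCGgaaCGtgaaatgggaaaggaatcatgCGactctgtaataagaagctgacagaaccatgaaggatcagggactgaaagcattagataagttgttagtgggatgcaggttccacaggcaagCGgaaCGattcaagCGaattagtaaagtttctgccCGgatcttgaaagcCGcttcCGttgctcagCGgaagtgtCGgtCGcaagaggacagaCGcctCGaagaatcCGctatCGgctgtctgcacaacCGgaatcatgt
SPAG6 and CNKSR2 held 47 and 45 CG dinucleotides at 72.3% and 76.3% GC. LAMB3, RPL32 and CSTF2T held 10, 12 and 19 at 61.3%, 44.3% and 51.3% GC. RAB6D was higher in NuMA ChIP with only 12 CG dinucleotides and 40.7% GC, so single windows departed from that difference.

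The windows reach 1000 bp to each side of a start site. Depth over all windows was 1080879 and 664234 counts for NuMA ChIP libraries 1 and 2, 729744 for the NuMA-arm input and 791361 for the IgG-arm input. Levels below are CPM, counts scaled to library size after TMM, and a single count equals 0.925 to 1.51 CPM before TMM. Among counts between 6 and 10, 72.7% to 78.3% were even in these libraries where an even spread would give 60%, so intervals that treat counts as independent may be too narrow. Values given as ± SE are log2 fold changes of NuMA ChIP over input.

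NuMA ChIP spread promoters far more widely than input did. The window at the 90th percentile held 20.9 and 11.4 times the CPM of the window at the 10th percentile in the NuMA libraries, against 4.11 in the NuMA-arm input and 4.32 in the IgG-arm input. Over 15726 windows with enough counts to test, Pearson's r of log2(CPM + 1) was 0.864 between the NuMA libraries, 0.813 between the inputs and 0.466 to 0.555 between a NuMA library and an input. These are correlations across windows, which are not independent replicates. Of the 15726 windows, 3848 (24.5%) were higher in NuMA ChIP, 2907 (18.5%) were lower and 8971 were not called, at an adjusted p under 0.05 in edgeR's quasi-likelihood test. Called windows had both NuMA libraries beyond both inputs in 3843 of 3848 higher cases and 2906 of 2907 lower cases, which the 4 libraries of the test itself supply and which is therefore a description.

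**Figure D1:**
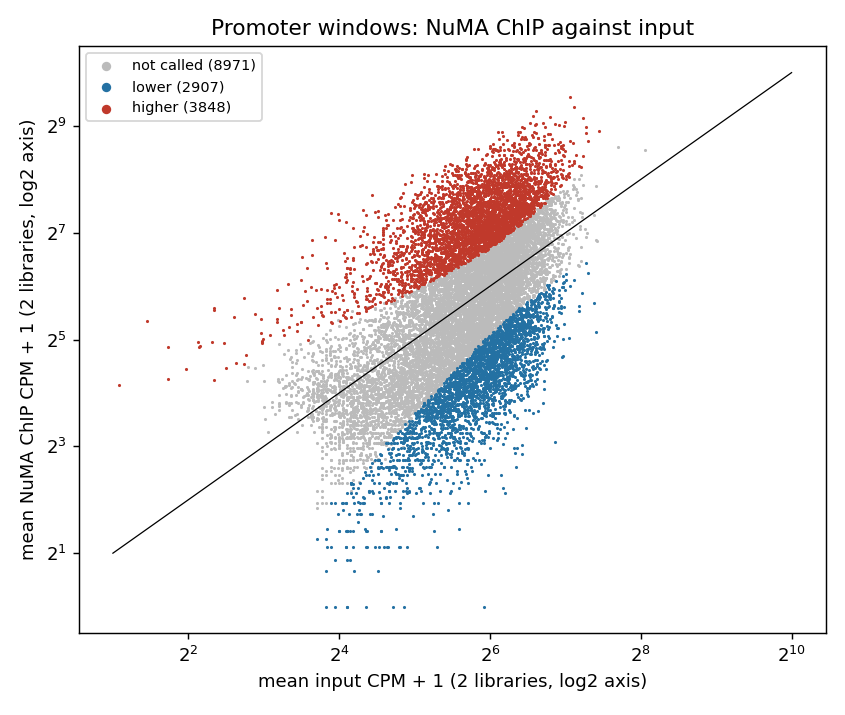
Mean CPM + 1 of the 2 NuMA ChIP libraries (vertical, log2 axis) against mean CPM + 1 of the 2 inputs (horizontal, log2 axis) for the 15726 windows tested, 1 point per window, with the line of equal values. The 3848 higher windows (red) and 2907 lower windows (blue) lie on either side of 8971 windows not called (grey), and the vertical spread is wider than the horizontal one.

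Higher and lower windows started from like input levels. Higher windows had medians of 169 and 132 CPM in NuMA ChIP libraries 1 and 2 against 53.4 and 59.3 in the NuMA-arm and IgG-arm inputs. Lower windows had 15 and 20.1 CPM against 58.1 and 57.1. The sets were chosen by the ratio of these same values, so the gap between their NuMA levels is set by that choice and is a description. Among higher windows the median log2 fold change was 1.40 and 675 were at least 4-fold higher, while among lower windows it was -1.67 and 846 were at least 4-fold lower. At 8-fold or more there were 24 higher and 133 lower windows, and 8 of the lower windows had no NuMA count at all.

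Windows were also counted by fold alone. Both NuMA libraries stood at least 2-fold above the input mean in 2386 windows (15.2%) and at least 2-fold below it in 2128 (13.5%). The 2 inputs stood 2-fold apart in 618 windows (3.93%), and the 2 NuMA libraries stood 2-fold apart in 2389 (15.2%). These counts set a single library against another in either direction, so they are not a like background for the counts above and below input. Restricted to 6689 windows with at least 30 counts in each of the 4 libraries, the shares were 25% above, 0.12% below, 0.598% between inputs and 3.45% between NuMA libraries. That restriction removes windows with few NuMA counts, so its share below input is low by construction. Its share above input is likewise shaped by that choice of windows.

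The balance of the calls moved with scaling, since every level is relative to the other promoters. TMM scaling put the median log2 fold change of all windows at -0.001 and made 57.0% of the calls higher. Scaling on total counts moved that median to -0.44, with 2387 higher and 4591 lower windows (34.2% of calls higher). Scaling on signal far from the start sites, in the outer 500 positions of the deposited profile around them, moved it to 0.32, with 5058 higher and 2126 lower windows (70.4%). With the IgG pull-down libraries also in the fit the counts were 2798 and 3427 (44.9%), and when only windows with 30 or more counts throughout a group were tested, 2886 and 3368 (46.1%). That last filter lets a window in through the group where it is high, so its balance is partly set by the filter. Leaving out the NuMA-arm input left 1346 higher and 850 lower calls, and leaving out the IgG-arm input left 1868 and 921. In those fits the remaining input is assumed to vary like the NuMA libraries. All of the original calls that those 2 fits could test kept their sign, and 997 higher and 465 lower windows stayed called with each of the 4 libraries left out in turn.

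The 12 largest higher windows rose from low input levels to NuMA levels above those of the median window. They were chosen by fold and with both NuMA libraries above both inputs, so that contrast is a description. SPAG6, a protein of the central apparatus of motile cilia and sperm tails, had 188 and 143 CPM in NuMA ChIP against 14.2 and 13.4 in the NuMA-arm and IgG-arm inputs. Its log2 fold change was 3.57 ± 0.36 (SE; adjusted p = 2.65e-05). The mean was 166 ± 32.5 CPM (SD, n = 2) in NuMA ChIP and 13.8 ± 0.561 (SD, n = 2) in input, with no overlap between groups. CNKSR2, a scaffold of Ras signalling in neurons, had 266 and 151 CPM against 16.6 and 24.6, with log2 fold change 3.33 ± 0.39 (SE) and adjusted p = 4.95e-05. NR0B1, an orphan nuclear receptor of adrenal and gonad development, had 219 and 126 CPM against 19 and 19, a log2 fold change of 3.18 ± 0.37 (SE). NuMA library 1 was the higher of the pair at each of these, and without it the values were 2.73 for CNKSR2 and 2.59 for NR0B1. CRYGD, a lens crystallin, had 146 and 146 CPM against 14.2 and 17.9 (3.17 ± 0.34, SE). PTF1A, a bHLH factor of pancreas and hindbrain, had 242 and 238 CPM against 32.0 and 24.6 (3.08 ± 0.36, SE). At both of these the NuMA libraries were nearly equal and all 4 leave-one-out fits stayed within 1.5 times of the value.

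RAB6C and RAB6D, both RAB6-like small GTPase genes on chromosome 2, were among the highest. RAB6D had 230 and 95.6 CPM against 9.49 and 20.2, a log2 fold change of 3.46 ± 0.44 (SE), which was 2.54 without NuMA library 1 and 4.12 without the IgG-arm input. RAB6C had 171 and 129 CPM against 16.6 and 13.4 (3.32 ± 0.35, SE). These belong to a family of near-identical copies, as do RGPD4 at 3.03 and the ankyrin repeat gene ANKRD18A at 3.14, so the placing of their reads is uncertain. RGPD4 was at 2.43 without NuMA library 1. The homeobox genes IRX2 (3.18) and NKX6-2 (3.16) and the Rab-family gene RASEF (3.01) completed the 12 largest. IRX2 rested on 6 and 17 input counts in a window that overlaps another by 1534 bp, and it was at 4.08 without the IgG-arm input. Without NuMA library 1 the values were 2.31 for NKX6-2 and 2.21 for RASEF. All 12 stayed called in each leave-one-out fit.

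The 12 largest lower windows had ample input and few or no NuMA counts. Their choice by fold, with at least 30 counts in each input and both NuMA libraries below both inputs, sets this contrast. LAMB3, which encodes a laminin chain in the basement membranes of epithelia (window chr1:209651467-209653467), had 0 counts in both NuMA libraries against 53 in the NuMA-arm input and 50 in the IgG-arm input. On a floor of 3 counts over the NuMA libraries it was 28.9-fold lower, which is no minimum. With a 95% exact (Clopper-Pearson) interval the fold starts at 23.1. PCR reads are not independent molecules, so this interval and the floor cover counting error only. RPL32, a protein of the large ribosomal subunit, had 0 and 6.71 CPM in NuMA ChIP against 72.3 and 72.8 in the NuMA-arm and IgG-arm inputs. Its log2 fold change was -4.62 ± 0.67 (SE; adjusted p = 9.83e-05), and it was -3.53 without NuMA library 1. CSTF2T, a paralogue of a polyadenylation cleavage factor, had 2.31 and 5.03 CPM against 90.1 and 52.6 (-4.31 ± 0.60, SE). Both NuMA libraries were far below both inputs in each of these 3 windows.

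TAF1, the largest subunit of the general transcription factor TFIID, had 2.31 and 6.71 CPM against 80.6 and 59.3 (-4.02 ± 0.58, SE) and was at -4.82 without NuMA library 2. ZMYND8, a chromatin reader, had 11.6 and 3.35 CPM against 96.0 and 134 (-3.81 ± 0.45, SE) and was at -5.16 without NuMA library 1. B9D2, a protein of the ciliary transition zone, had 5.78 and 6.71 CPM against 98.4 and 71.7 (-3.75 ± 0.48, SE). The inputs of these 3 windows stood above the median window, and both NuMA libraries lay far below them. PNISR, an SR-related protein (-4.03), RAB30, a Golgi Rab (-3.85), and the mitochondrial carrier gene SLC25A44 (-3.85) were lower by similar amounts. Without NuMA library 1 RAB30 was at -4.64, and without NuMA library 2 SLC25A44 was at -4.65. UMAD1 had 6 and 0 NuMA counts and a value of -3.86, which was -3.08 without NuMA library 2. APEX2, an AP endonuclease, had 3 NuMA counts in all and was 20.8-fold lower as a ratio of counts (95% exact counting interval 6.83 to 103). Its window overlaps another by 180 bp. Where 1 NuMA library was at 0, as at RPL32, leaving out the other gives a fold against 0, which is no bound and is left out here and below.

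**Figure D2:**
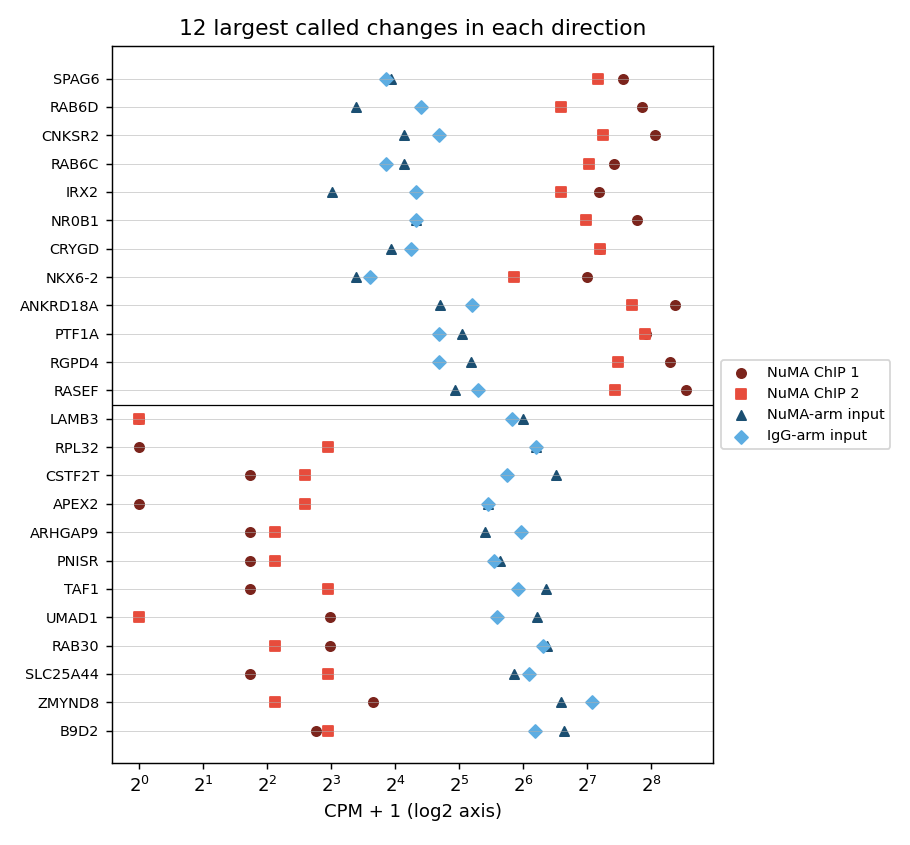
CPM + 1 on a log2 axis in each of the 4 libraries (NuMA ChIP red, inputs blue) for the 12 largest called differences in each direction among windows with at least 30 counts in each library of the higher group. The rule for these windows also required both NuMA ChIP points beyond both input points, so that separation is set by the choice, and LAMB3 has both NuMA points at a CPM of 0.

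Higher windows were richer in GC than lower ones. A 300-base RefSeq promoter was found for 10565 of the tested windows (67.2%), under the 80% needed to speak for all windows, so the values below describe those windows only. Median GC content was 70.7% in higher, 64.0% in uncalled and 58.0% in lower windows. Median observed over expected CpG was 0.838, 0.784 and 0.619 in the same order. In 5 bins of near-equal size by GC content, from low to high, the median log2 fold change was -0.68, -0.68, -0.04, 0.41 and 0.82. The share of windows called higher ran from 9.23% in the lowest bin to 49.6% in the highest, and the share called lower from 25.6% to 1.21%, with its top of 36.1% in the bin next to the lowest.

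NuMA levels climbed with GC much more steeply than input levels. From the lowest to the highest bin, median CPM went from 17.3 to 114 in NuMA ChIP library 1 and from 21.8 to 98.9 in library 2. Over the same bins it went from 35.6 to 59.3 in the NuMA-arm input and from 33.6 to 63.8 in the IgG-arm input. All 4 libraries were thus lower in AT-rich promoters, the NuMA libraries by the larger factor. The middle of 5 bins of mean input CPM was also taken alone, a split chosen after seeing the data. Its windows span 46.1 to 59.7 mean input CPM, so inputs that stayed at 51.5 to 54.9 CPM are set by that choice. Across its GC bins NuMA ChIP library 1 went from 24.3 to 108 and library 2 from 31.9 to 90.6. There the median log2 fold change ran from -0.93 in the lowest to 0.89 in the highest GC bin. The rise with GC was larger in library 1 than in library 2, and without library 1 the highest bin over all input levels was at 0.56.

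**Figure D3:**
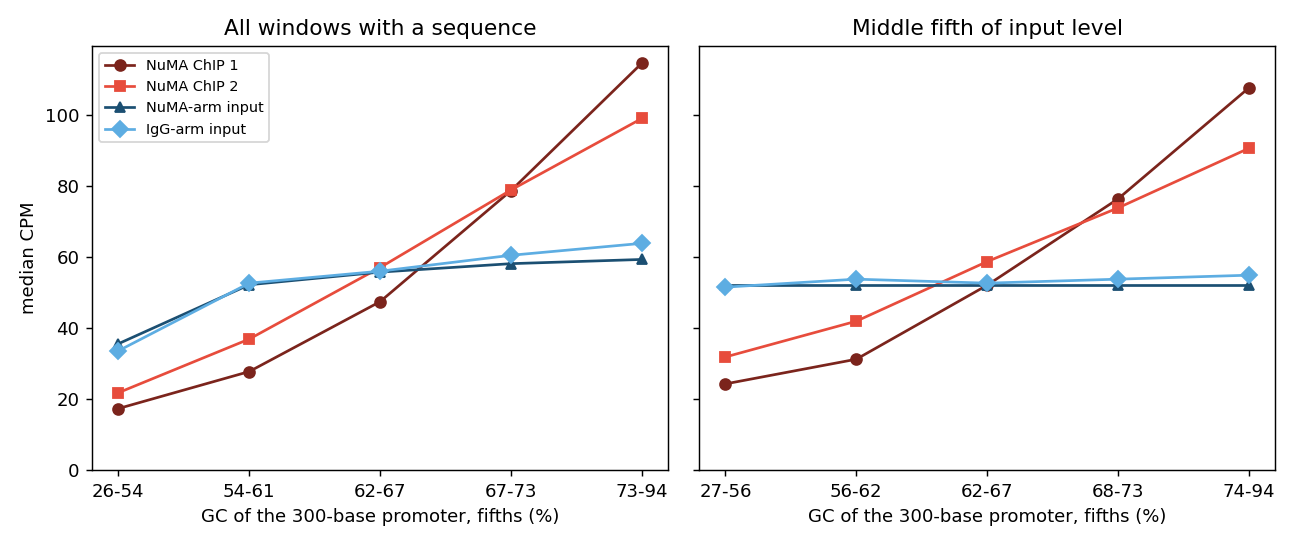
Median CPM of each library (vertical) in 5 bins of promoter GC content in percent (horizontal), for 10565 windows with a sequence (left) and for those in the middle of 5 bins of mean input CPM (right). Both NuMA ChIP lines climb across the bins, while the input lines climb less on the left. On the right the input lines are flat because the windows were chosen by input level.

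Observed over expected CpG separated windows mainly at its low end. Its lowest of 5 bins had a median log2 fold change of -0.87, with 5.68% of windows called higher and 34.0% lower. The other 4 bins had medians from 0.10 to 0.37. Promoters of the lowest bin, up to 0.378, therefore stood apart, whereas differences among the other 4 bins were smaller. These bins were not matched for GC content.

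Fixed letter strings in the 300-base promoters were counted next. Both strands were searched, and none of the 8 strings contains another. The GC box GGGCGG, recognised by Sp/KLF factors, was in 78.5% of higher and 45.0% of lower windows, against 63.3% of all tested windows with a sequence and 61.4% of all promoters in the table. In the opposite direction, the CCAAT box was in 28.1% of higher and 42.0% of lower windows (36.7% of all promoters), and the ETS string CCGGAAGT in 2.47% and 8.04% (6.74%). The AP-1 string TGANTCA was in 2.85% and 8.26% (5.33%) and the TATA string TATAAA in 6.12% and 9.92% (9.29%). The E-box CACGTG was in 8.86% and 8.10% (9.16%) and the CRE string TGACGTCA in 2.28% and 2.90% (2.74%), while the NRF1 palindrome was in 1.06% and 1.88% (1.87%). These shares were not matched for base composition, and a match is a description of letters, not of a bound site.

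Gene groups are given by counts and medians, beside 24.5% higher, 18.5% lower and a median of -0.001 over all windows tested. The lists were chosen with earlier results of these data known and carry no test of their own. Members other than the highest and lowest were picked as examples after their values were seen. Values with a GC offset cover only members with a promoter sequence and so differ from the main values in members too. The offset was a smooth curve of these same log2 fold changes on promoter GC. It takes out the trend with GC whatever its source, including any rise of NuMA binding with GC. Over the 10565 windows with a sequence the median with that offset was -0.11, with 1739 higher and 1411 lower. Most calls over all windows were also lost when each library was left out in turn, as given above. A loss of calls in those fits is therefore not particular to a list.

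HOX and other developmental regulators, transcription factors that pattern the embryo, were the list with the highest median in this fit and in each alternative fit of the lists. Of 49 genes listed, 41 had a window and 40 were tested, and 19 were higher, 2 lower and 19 not called, with a median log2 fold change of 0.70. Without the NuMA-arm input 6 were higher and 0 lower, without the IgG-arm input 8 and 0, and 5 of the 19 higher calls and 0 of the 2 lower ones stayed with each library left out. SOX1, a factor of early neural cells, had 234 and 78.8 CPM in NuMA ChIP against 20.2 and 23.5 in the NuMA-arm and IgG-arm inputs, with log2 fold change 2.85 ± 0.43 (SE) and adjusted p = 0.000114. Both NuMA libraries were above both inputs, library 1 more so, and without it the value was 1.71. HOXD1, a homeobox gene of the HOXD cluster, had 325 and 226 CPM against 48.6 and 59.3 (2.35 ± 0.38, SE). HOXD8 had 287 and 216 CPM against 55.7 and 60.5 (2.12 ± 0.36, SE). TBX4, a T-box factor of lung mesenchyme and hindlimb, had 459 and 325 CPM against 68.8 and 57.1 (2.64 ± 0.43, SE), and was not called without the NuMA-arm input (adjusted p = 0.0518) or the IgG-arm input (0.0733). The groups did not overlap in any of these 4 windows, which does not set them apart. Both NuMA libraries were above both inputs in 3843 of the 3848 higher windows. The groups did not overlap in 11632 of the 15726 windows tested.

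HOXB2 was lower (-1.16 ± 0.37, SE), with 24.3 and 62.0 CPM against 86.6 and 98.5. It was not called without NuMA library 1 (-0.71, adjusted p = 0.108), the NuMA-arm input (0.0556) or the IgG-arm input (0.119), nor by DESeq2 (0.0732), and was at -1.91 without NuMA library 2. GATA4, a factor of heart and gut endoderm, was not called at -0.70. On total-count scaling 16 members were higher and 3 lower, with a median of 0.26, and on flank scaling 24 were higher and 1 lower, with a median of 1.02. A change of scaling moves all windows by about the same amount. With a GC offset, in the 21 members that had a promoter sequence, 17 were higher and 0 lower with a median of 1.19.

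Immediate early genes, induced at once by growth signals and stress, had a median of 0.47. Of 29 tested members 7 were higher, 2 lower and 20 not called, a share near the 24.5% of all windows. The counts were 2 higher and 1 lower without the NuMA-arm input, 2 and 0 without the IgG-arm input, and 13 and 3 without NuMA library 2, and the median was 0.17 without NuMA library 1. EGR4, a zinc finger factor of the EGR family, had 160 and 168 CPM in NuMA ChIP against 48.6 and 32.5 in the inputs, with log2 fold change 2.01 ± 0.32 (SE) and adjusted p = 0.000168. Both NuMA libraries were more than 3 times either input, and it was the only one of the 7 to stay called with each library left out. FOSB, an AP-1 subunit, had 20.8 and 50.3 CPM against 79.4 and 109 (-1.46 ± 0.38, SE). It was not called without the IgG-arm input (-1.17, adjusted p = 0.0978), and was at -2.15 without NuMA library 2. JUN, another AP-1 subunit, had 92.5 and 95.6 CPM against 104 and 92.9, a value of -0.07 ± 0.29 (SE, adjusted p = 0.868). FOS had 43.9 and 82.2 CPM against 60.5 and 64.9 (-0.023 ± 0.35, SE), with inputs between the NuMA libraries. EGR1 had 136 and 92.2 CPM against 84.2 and 75 (0.54 ± 0.31, SE, adjusted p = 0.164), with both NuMA libraries above both inputs. It was called without NuMA library 2 (0.79, adjusted p = 0.0219) and on flank scaling (0.87, 0.0433). On total-count scaling the list had 4 higher and 4 lower members and a median of 0.02. With a GC offset, 3 of the 21 members with a sequence were higher and 1 lower, with a median of 0.003.

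**Figure D4:**
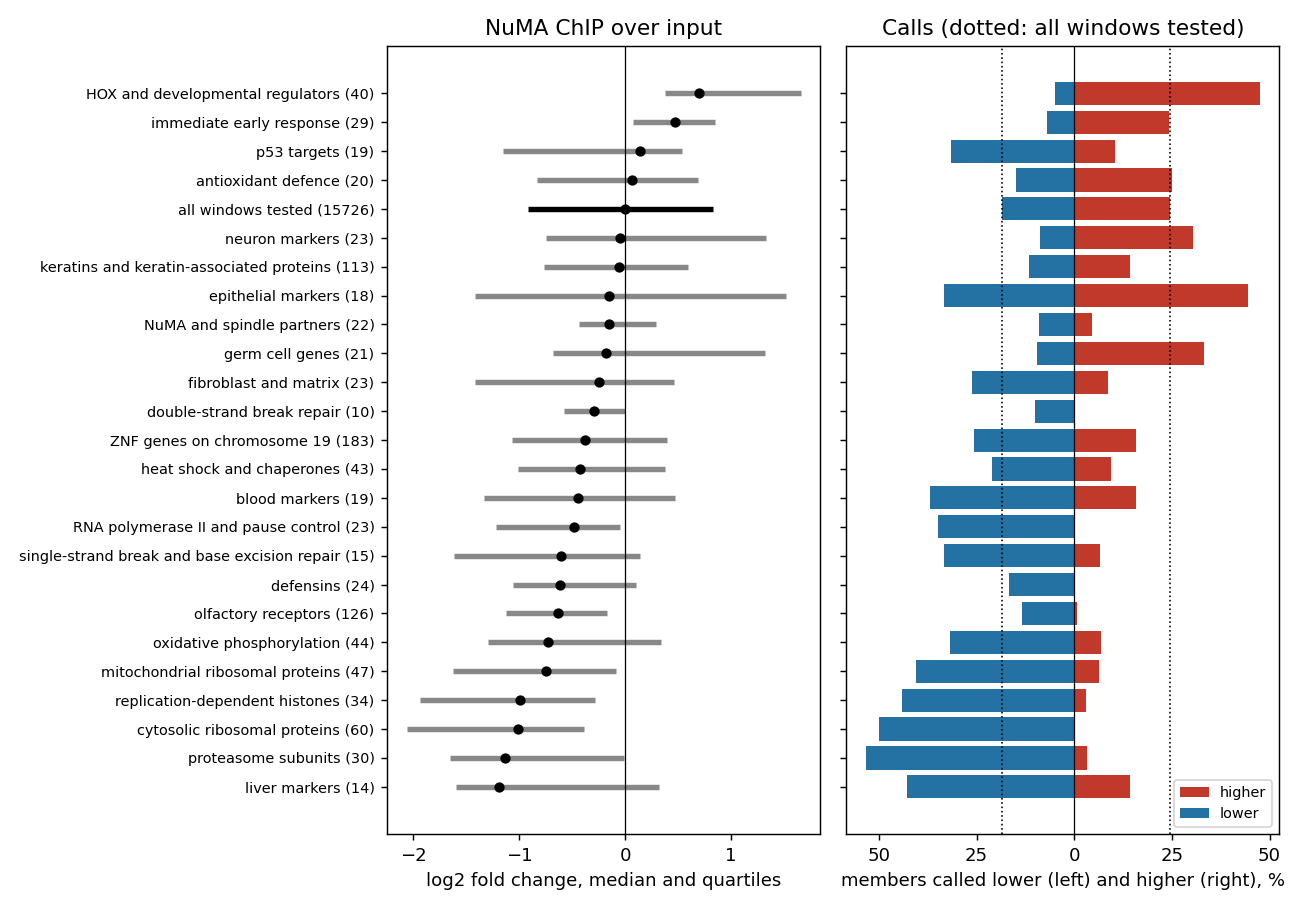
Median (point) and quartiles (bar) of the log2 fold change of NuMA ChIP over input for each gene list, with the number of tested members in brackets (left), and the percent of members called lower and higher (right). Dotted lines mark 18.5% lower and 24.5% higher over all 15726 windows, and in this fit the lists run from HOX and developmental regulators at 0.70 down to liver markers at -1.20.

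Lists of ribosomal, proteasome, mitochondrial and histone genes had medians below 0, with more members lower than higher and many not called. Of 60 tested genes of cytosolic ribosomal proteins, 30 were lower, 0 higher and the other 30 not called, with a median of -1.01. The direction held at each scaling, with 38 lower on total counts and 24 lower and 1 higher on flank scaling. RPL32 was the lowest, as described above, and RPS27, of the small subunit, had 4.63 and 6.71 CPM in NuMA ChIP against 43.9 and 51.5 in the inputs (-3.08 ± 0.60, SE). RPS29 was the highest at 1.57 ± 0.65 (SE, adjusted p = 0.0556), in a window that overlaps another by 1532 bp. RPS29 was called without NuMA library 2 (1.90, adjusted p = 0.0193) and on flank scaling (0.01). There were 11 lower members without the NuMA-arm input and 15 without the IgG-arm input, and 9 of the 30 stayed called with each library left out. Median promoter GC of the 46 members with a sequence was 59.0%, against 64.0% over all windows, and with a GC offset 13 of those 46 were lower and 0 higher, with a median of -0.62.

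Proteasome subunits, which build the complex that degrades ubiquitinated proteins, had 16 lower and 1 higher of 30 tested and a median of -1.14. Lower members numbered 4 without the NuMA-arm input and 5 without the IgG-arm input, and 2 of the 16 stayed called with each library left out. PSMB7, a catalytic core subunit, had 9.25 and 6.71 CPM against 70.0 and 50.4, with log2 fold change -2.86 ± 0.52 (SE) and adjusted p = 0.000353. The member that was higher, PSMA8, is the testis form of an alpha subunit, at 119 and 92.2 CPM against 46.2 and 29.1 (1.5 ± 0.33, SE). PSMB7 and PSMA8 were among the members that stayed called. PSMA7 had the largest value of the list, 1.59 ± 0.75 (SE, adjusted p = 0.0912), in a window that overlaps another by 1648 bp, and was called on flank scaling (0.0275).

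Mitochondrial ribosomal proteins had 19 lower and 3 higher of 47 tested, with a median of -0.75. There were 7 lower and 1 higher without the NuMA-arm input, and 7 and 0 without the IgG-arm input. With each library left out, 4 of the 19 lower and 0 of the 3 higher calls stayed. MRPS33 had 2.31 and 3.35 CPM against 41.5 and 35.8 (-3.74 ± 0.72, SE), and MRPS10 had 4.63 and 6.71 CPM against 60.5 and 58.2 (-3.39 ± 0.55, SE). In both the NuMA libraries lay far below the inputs, and both are among those 4. MRPL41, higher at 1.40 ± 0.44 (SE), overlaps another window by 1338 bp. It was not called without the IgG-arm input (0.84, adjusted p = 0.25) by DESeq2 (0.0786), on total-count scaling (0.112), with all 6 libraries in the fit (0.0641) or with a GC offset (0.34, 0.601), and was at 2.39 without the NuMA-arm input. Oxidative phosphorylation genes, which encode the respiratory chain, had 14 lower and 3 higher of 44 tested, with a median of -0.73. Lower members fell to 4 without the NuMA-arm input and 7 without the IgG-arm input, and 2 of the 14 lower and 1 of the 3 higher calls stayed with each library left out. UQCRC2, a core protein of complex III, had 6.94 and 10.1 CPM against 64.0 and 54.9 (-2.82 ± 0.51, SE). The 3 higher members were COX6A2 and COX7A1, heart and muscle forms of complex IV subunits, and COX6B2, a testis form. COX6A2 had 240.5 and 117 CPM against 40.3 and 49.3 (2.01 ± 0.36, SE) and was at 1.25 without NuMA library 1. COX6B2 was at 1.28 and COX7A1 at 1.24, and both lost the call without the NuMA-arm input (adjusted p = 0.0568 and 0.229), COX6B2 also without the IgG-arm input (0.0654). On flank scaling the higher members rose to 8 in each of the mitochondrial ribosomal and respiratory lists, with 15 and 11 lower.

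Replication-dependent histone genes, which lie in clusters and lack polyadenylation, had 15 lower and 1 higher of 34 tested, with a median of -0.99. Only 3 were lower without the NuMA-arm input and 2 without the IgG-arm input, and 1 of the 15 stayed called with each library left out. The median was -1.66 without NuMA library 2. H3C7 had 0 and 11.7 CPM against 51.0 and 41.4 (-3.16 ± 0.75, SE), in a window that overlaps another by 957 bp. It was at -2.09 without NuMA library 1 and was not called by DESeq2 (adjusted p = 0.237). H4C9 was the exception, with 54.4 and 111 CPM against 27.3 and 17.9 (1.84 ± 0.42, SE). Of 67 histone windows only 34 had enough counts to test and 16 of those overlap another window, and near-identical copies make read placing uncertain. Their median promoter GC was 45.7%. With a GC offset, 2 of the 31 members with a sequence were higher and 5 lower, with a median of -0.63.

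DNA repair lists were short once windows with few counts were left out. For single-strand break and base excision repair, 15 members of 29 listed were tested, with 5 lower (33.3%, against 18.5% of all windows), 1 higher and 9 not called, and a median of -0.61. Leaving out the NuMA-arm input gave 2 lower and 0 higher, and 2 of the 5 lower calls stayed with each library left out. MUTYH, a glycosylase that removes adenine paired with oxidised guanine, had 0 and 0 NuMA counts against 18 and 26 in the NuMA-arm and IgG-arm inputs. On the floor of 3 counts over the NuMA libraries it was 12.3-fold lower, with the exact interval starting at 9.62. Its window overlaps that of TOE1 by 1199 bp. OGG1, the glycosylase for 8-oxoguanine, had 22 and 50.3 CPM against 122 and 85.1, with log2 fold change -1.57 ± 0.37 (SE) and adjusted p = 0.00228. Both NuMA libraries lay below both inputs, but without the NuMA-arm input the value was -1.26 and the call was lost (adjusted p = 0.07), while without NuMA library 2 it was -2.21. MPG, a glycosylase for alkylated bases, was higher at 1.94 ± 0.60 (SE) with 53.2 and 25.2 CPM against 5.93 and 14.6. It overlaps another window by 1351 bp and was not called without NuMA library 1 (1.15, adjusted p = 0.31) or the NuMA-arm input (1.45, 0.195), nor by DESeq2 (0.0517), on total-count scaling (0.062) or with all 6 libraries in the fit (0.0652), and was at 2.74 without the IgG-arm input.

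PARP1, which senses DNA breaks, had 49.7 and 83.8 CPM against 79.4 and 67.2, a value of -0.16 ± 0.33 (SE, adjusted p = 0.714), and its groups overlapped. TDP1, which resolves blocked 3′ ends, had 11.6 and 5.03 CPM against 14.2 and 12.3 (-0.61 ± 0.73, SE, adjusted p = 0.52). Its window overlaps that of EFCAB11 by 1841 bp and the gene start lies 989 bp from the window centre, so the value says little about this promoter. No window matched XRCC1. Of 10 tested double-strand break repair genes, 1 was lower, 0 were higher and 9 were not called, with a median of -0.29 that was 0.02 on flank scaling. The lower one, MDC1, a mediator of the damage response, had 11.6 and 15.1 CPM against 51.0 and 50.4 (-1.94 ± 0.49, SE). It was not called without the NuMA-arm input (adjusted p = 0.0802) or the IgG-arm input (0.0756). NHEJ1, an end-joining factor, had the highest value at 0.39 ± 0.46 (SE, adjusted p = 0.506).

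Genes of RNA polymerase II and of the control of promoter-proximal pausing had 8 lower and 0 higher of 23 tested, with a median of -0.48. Without either input 1 was lower. HEXIM1, which holds the pause-release kinase P-TEFb inactive, had 24.3 and 25.2 CPM in NuMA ChIP against 107 and 141 in the inputs, with log2 fold change -2.32 ± 0.34 (SE) and adjusted p = 9.54e-05. Its NuMA libraries agreed closely, and of the 8 lower members it alone stayed called with each library left out. POLR2L, a small polymerase subunit, had 3 NuMA counts in all and was 7.57-fold lower as a ratio of counts (95% exact counting interval 2.33 to 39.0). Its window overlaps another by 1740 bp, and the call was lost without NuMA library 1 (-1.72, adjusted p = 0.262), either input (0.231 and 0.243), by DESeq2 (0.1) or with all 6 libraries in the fit (0.0621). CDK9, the kinase of P-TEFb, was not called at 0.45, nor was NELFB, a subunit of the pausing factor NELF, at 0.74 ± 0.35 (SE, adjusted p = 0.0911). NELFB was called without NuMA library 2 (0.98, adjusted p = 0.00223) and on flank scaling (1.07, 0.0494). POLR2A, the largest subunit, had 0 and 0 counts in NuMA ChIP and 0 and 2 in the inputs and was not tested, in a window that overlaps that of ZBTB4 by 1900 bp. On flank scaling 1 member was higher and 6 were lower.

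NUMA1 itself could not be tested. Its window had 1 and 0 counts in NuMA ChIP and 8 and 5 in the inputs, and it overlaps that of LRRC51 by 1637 bp. Among 22 tested genes for NuMA and its spindle partners, 2 were lower, 1 was higher and 19 were not called, with a median of -0.16 that was 0.16 on flank scaling. The median was also 0.16 without the NuMA-arm input, where 0 were called, and none of the 3 calls stayed with each library left out. DYNC1H1, the dynein heavy chain, had 128 and 121 CPM against 68.8 and 75, with log2 fold change 0.79 ± 0.30 (SE) and adjusted p = 0.0358. Both NuMA libraries were above both inputs, but the call was lost without NuMA library 1 (0.62, adjusted p = 0.122), the NuMA-arm input (0.266) or the IgG-arm input (0.168), by DESeq2 (0.154), on total-count scaling (0.35, 0.318), with a GC offset (-0.024, 0.962), with all 6 libraries in the fit (0.149) and with no count filter (0.0832). Its promoter had 75.7% GC. TPX2, which activates Aurora A on spindles, had 24.3 and 40.2 CPM against 99.6 and 69.4 (-1.42 ± 0.37, SE), and was not called without the NuMA-arm input (-1.12, adjusted p = 0.148).

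Fibroblast and matrix genes had 2 higher and 6 lower of 23 tested, with a median of -0.25 that was 0.08 on flank scaling. Counts were 0 higher and 4 lower without the NuMA-arm input, without the IgG-arm input 1 and 4, and 0 of the 2 higher and 3 of the 6 lower calls stayed with each library left out. These are DNA libraries, so windows of fibroblast markers do not report expression and cannot check the labelled cell type. TIMP1, an inhibitor of matrix proteases, had 4.63 and 8.38 CPM against 45.1 and 51.5 (-2.92 ± 0.59, SE). COL1A1, a chain of type I collagen, had 28.9 and 62.0 CPM against 147 and 142 (-1.71 ± 0.35, SE), and was at -2.30 without NuMA library 2. Both stayed lower with each library left out. COL6A2, a chain of type VI collagen, had 242 and 211 CPM against 77.1 and 75 (1.57 ± 0.34, SE), and was not called without the NuMA-arm input (adjusted p = 0.0846) or the IgG-arm input (0.0852), or with a GC offset (0.57, 0.209). VIM, the intermediate filament of mesenchymal cells, was not called at -0.37.

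Stress-response lists were mixed. Antioxidant defence genes had 5 higher (25%) and 3 lower (15%) of 20 tested, near the 24.5% and 18.5% of all windows. Their median was 0.07, and -0.38 on total-count scaling. It was -0.02 without NuMA library 1, -0.06 without NuMA library 2 and -0.40 over 13 members with a GC offset. No member was called without the NuMA-arm input, and none of the 8 calls stayed with each library left out. PRDX2 and PRDX3, peroxiredoxins of the cytosol and the mitochondrion, stood at opposite ends. PRDX2 had 200.1 and 164 CPM against 58.1 and 94.0 (1.26 ± 0.34, SE), and was not called without the NuMA-arm input (0.97, adjusted p = 0.241) or with a GC offset (0.55, 0.229). PRDX3 had 6.94 and 21.8 CPM against 58.1 and 48.1 (-1.96 ± 0.52, SE), was at -2.90 without NuMA library 2 and was not called without the NuMA-arm input (-1.78, 0.107). Both NuMA libraries lay beyond both inputs in each. Targets of p53 had 2 higher and 6 lower of 19 tested, with a median of 0.14 that was -0.31 on total-count scaling. That median was -0.15 without NuMA library 1, -0.26 without NuMA library 2 and -0.05 without the IgG-arm input. With a GC offset it was -0.42 over 13 members. Without the NuMA-arm input 0 were called, without the IgG-arm input 1 was lower, and none of the 8 calls stayed with each library left out. CDKN1A, a cell cycle inhibitor, had 11.6 and 11.7 CPM against 27.3 and 40.3 (-1.53 ± 0.57, SE). It was not called without the NuMA-arm input (adjusted p = 0.146) or the IgG-arm input (0.41), on flank scaling (0.0777) or by DESeq2 (0.109). TP53INP1 was higher at 1.23 ± 0.33 (SE), and was not called without either input (0.136 and 0.146). Heat shock and chaperone genes had 4 higher (9.30%) and 9 lower (20.9%, near the 18.5% of all windows) of 43 tested, with a median of -0.43. Without the NuMA-arm input 2 were higher and 2 lower, without the IgG-arm input 2 and 1, and without NuMA library 2, where the median was -0.79, 6 and 19. Of these calls 1 higher and 0 lower stayed with each library left out. DNAJA4, an Hsp40 co-chaperone, had 201 and 109 CPM against 17.8 and 42.5 (2.36 ± 0.39, SE), and was at 1.71 without NuMA library 1 and 3.15 without the IgG-arm input. HSPA13 was the lowest at -2.65 ± 0.76 (SE), at -3.46 without NuMA library 2, and was not called without either input (adjusted p = 0.23 and 0.0671).

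Genes restricted to other tissues did not share a direction. Neuron markers had 7 higher and 2 lower of 23 tested, with a median of -0.05 that was 0.27 on flank scaling. Only 11 of the 23 had a promoter sequence for the GC offset. Leaving out either input gave 4 higher and 1 lower, the median was 0.11 without NuMA library 2, 0.02 without the IgG-arm input and -0.65 with a GC offset, and 4 of the 7 higher and 1 of the 2 lower calls stayed with each library left out. SLC6A3, the dopamine transporter, had 639 and 307 CPM in NuMA ChIP against 56.9 and 84.0 in the inputs, with log2 fold change 2.75 ± 0.50 (SE) and adjusted p = 0.000363. Both NuMA libraries were far above both inputs, but the call was lost without the NuMA-arm input (adjusted p = 0.135) or the IgG-arm input (0.0687), and the value was 1.99 without NuMA library 1. NEFH, a neurofilament chain, had 331 and 158 CPM against 61.7 and 62.7 (1.98 ± 0.39, SE) and was at 1.21 without NuMA library 1. RBFOX3, the splicing factor known as NeuN, had 9.25 and 26.8 CPM against 70.0 and 91.8 (-2.24 ± 0.44, SE) and was at -3.09 without NuMA library 2.

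Germ cell genes had 7 higher and 2 lower of 21 tested, with a median of -0.18 that was 0.13 on flank scaling. It was 0.05 without NuMA library 1, 0.01 without the IgG-arm input and 0.03 over 16 members with a GC offset. Without the NuMA-arm input 3 were higher and 0 lower, and 3 of the 7 higher and 0 of the 2 lower calls stayed with each library left out. BOLL, a germ cell RNA-binding protein, had 309 and 184 CPM against 52.2 and 53.7 (2.22 ± 0.37, SE) and stayed called with each library left out. MAGEC1, a cancer-testis antigen, had 2.31 and 6.71 CPM against 24.9 and 29.1 (-2.64 ± 0.75, SE). It was not called without the NuMA-arm input (adjusted p = 0.107) or the IgG-arm input (0.163), and was at -3.45 without NuMA library 2. Epithelial markers had 8 higher and 6 lower of 18 tested, with a median of -0.15 that was 0.17 on flank scaling. Without the NuMA-arm input 3 were higher and 2 lower, without the IgG-arm input 4 and 4, and 3 of the 8 higher and 2 of the 6 lower calls stayed with each library left out. LAMB3 was the lowest, as described above, and NKX2-1, a regulator of lung epithelium and thyroid, was the highest. NKX2-1 had 162 and 151 CPM against 23.7 and 35.8 (2.38 ± 0.33, SE) and stayed called with each library left out.

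Liver markers had a median of -1.20, with 2 higher and 6 lower of 14 tested. This was the lowest median of the 24 lists in this fit but not in all others. With no count filter it was -0.84 against -1.23 for single-strand break and base excision repair. It was -1.03 without the IgG-arm input, against -1.07 for cytosolic ribosomal proteins, and -1.28 without NuMA library 2, against -1.66 for histones. Without either input 2 were lower, and 0 of the higher and 1 of the lower calls stayed with each library left out. AHSG, a secreted liver glycoprotein, had 0 and 13.4 CPM against 61.7 and 38.1 (-3.08 ± 0.75, SE). It was at -2.01 without NuMA library 1, and was not called without the NuMA-arm input (-2.62, adjusted p = 0.0656) or by DESeq2 (0.282). APOB, the apolipoprotein of low-density lipoproteins, had 149 and 122 CPM against 64.0 and 50.4 (1.25 ± 0.31, SE), and was not called without the IgG-arm input (1.11, 0.0907). Blood markers had 3 higher and 7 lower of 19 tested, with a median of -0.45. With the NuMA-arm input left out 1 was higher and 2 lower, without the IgG-arm input 2 and 3, and without NuMA library 1, 1 and 3. With each library left out, 1 higher and 1 lower call stayed. HBA1, an alpha globin gene with a near-identical copy, had 141 and 83.8 CPM against 36.8 and 41.4 (1.54 ± 0.33, SE). CD3D, a T-cell receptor component, had 4.63 and 1.68 CPM against 17.8 and 31.3 (-2.81 ± 0.80, SE). It overlaps another window by 403 bp, was at -3.87 without NuMA library 1, and was not called without the NuMA-arm input (adjusted p = 0.0613) or the IgG-arm input (-2.34, 0.254).

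Families of many copies were next. Genes with a ZNF symbol on chromosome 19, most of them in clusters of zinc finger repressors, had 29 higher and 47 lower of 183 tested, with a median of -0.38. There were 13 higher and 13 lower without the NuMA-arm input and 15 and 16 without the IgG-arm input. Of these calls 9 of the 29 higher and 10 of the 47 lower calls stayed with each library left out. The symbol was the only criterion, so the KRAB domain of each was not checked. ZNF135 had 310 and 181 CPM against 51.0 and 51.5 (2.27 ± 0.37, SE), and ZNF223 had 0 and 11.7 CPM against 60.5 and 47.0 (-3.38 ± 0.73, SE). The ZNF135 call held with each library left out, while ZNF223 was at -2.31 without NuMA library 1 and was not called by DESeq2 (adjusted p = 0.203). On flank scaling 40 were higher and 34 lower, with a median of -0.07, and with a GC offset 25 of 156 were higher and 26 lower, with a median of -0.04.

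Olfactory receptor genes, CpG-poor and silent outside the nose, had 1 higher and 17 lower of 126 tested, with a median of -0.63. The share lower was 13.5%, under the 18.5% of all windows, and the share higher was 0.794%, against 24.5%. Their median input level was 21.9 CPM against 53 over all windows, and their median promoter GC was 36.7%. With a GC offset, 1 of the 100 members with a sequence was higher and 2 lower, with a median of -0.24. Lower members numbered 2 without the NuMA-arm input, 0 without the IgG-arm input and 29 without NuMA library 2, and none of the 18 calls stayed with each library left out. OR13J1 had 2.31 and 23.5 CPM against 47.4 and 64.9 (-2.26 ± 0.61, SE), was at -1.39 without NuMA library 1 and -4.51 without NuMA library 2, and was not called without the IgG-arm input (adjusted p = 0.0878) or with a GC offset (0.0542). OR5W2, the higher one, had 17 and 10 NuMA counts against 2 and 2 input counts (2.91 ± 0.85, SE), and was not called without either input (0.174 and 0.174) or with all 6 libraries in the fit (0.0695). Low input counts limit the precision there.

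Keratins and keratin-associated proteins, structural proteins of epithelia and hair, had 16 higher and 13 lower of 113 tested, with a median of -0.05 that was 0.26 on flank scaling. The median was 0.13 without NuMA library 1, -0.40 without NuMA library 2, 0.08 without the NuMA-arm input and 0.10 without the IgG-arm input. Calls were 6 higher and 3 lower without the NuMA-arm input, 4 and 4 without the IgG-arm input, and 14 and 27 without NuMA library 2. Of the 16 higher calls 2 stayed with each library left out, and of the 13 lower calls 1. KRT40 had no NuMA count against 14 and 14 input counts. It was 7.85-fold lower on the floor of 3 counts over the NuMA libraries, with the exact interval starting at 5.97. KRTAP9-1 had 19.7 and 40.2 CPM against 2.37 and 5.60 (2.82 ± 0.75, SE). It was at 3.58 without the IgG-arm input, and was not called without NuMA library 2 (2.27, adjusted p = 0.0774) or the NuMA-arm input (2.37, 0.117). Keratin-associated genes lie in clusters of similar copies. With a GC offset, 22 of 85 members with a sequence were higher and 2 lower, with a median of 0.52. Defensin genes, which encode antimicrobial peptides, had 0 higher and 4 lower of 24 tested. The 16.7% lower was near the 18.5% of all windows. Their median was -0.62, and 0.04 over 14 members with a GC offset. Lower members numbered 0 without the NuMA-arm input, 1 without the IgG-arm input and 7 without NuMA library 2, and none of the 4 calls stayed with each library left out. DEFA6 was the lowest at -1.66 ± 0.65 (SE, adjusted p = 0.0439), and was not called without NuMA library 1 (0.106), without either input (0.377 and 0.225), by DESeq2 (0.124) or on flank scaling (0.0875). DEFB108B was the highest at 1.20 ± 0.67 (SE, adjusted p = 0.155), and was called on flank scaling (0.0398).

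Chromosomes differed in their balance of calls. Median log2 fold change per chromosome ran from -0.26 on chromosomes 11 and 19 to 0.55 on chromosome 18, with chromosome 21 at 0.42 and chromosome 4 at 0.38. On chromosome 18, 77 of 218 tested windows were higher (35.3%) and 15 lower (6.88%). On chromosome 19, 225 of 1206 were higher (18.7%) and 295 lower (24.5%). These are descriptions with no test, because windows of 1 chromosome are not replicates.

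Overlapping windows had low counts. Of all windows 3741 (18.7%) overlap another, as at divergent promoters, and their counts fell as the overlap grew. Where no window overlapped, median counts were 35 and 29 for NuMA ChIP and 42 and 45 for the NuMA-arm and IgG-arm inputs. At 1001 to 1500 bp of overlap the medians were 6, 5, 13 and 14, and above 1800 bp they were 0 in all 4 libraries. The labels do not say how reads in a shared stretch were counted. Only 954 of the overlapping windows could be tested, of which 147 were higher (15.4%) and 206 lower (21.6%), against 25.1% and 18.3% of 14772 windows with no overlap. Testing only the latter gave 3638 higher and 2787 lower calls.

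**Figure D5:**
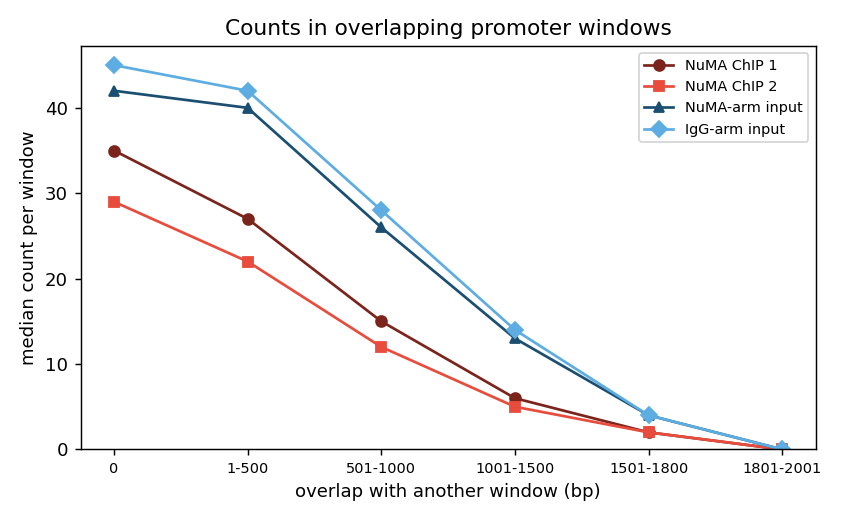
Median count per window in each of the 4 libraries (vertical) by the length in bp that a window shares with another (horizontal). Counts fall with overlap in every library and reach 0 above 1800 bp, where the windows of TDP1 and POLR2A lie.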

How the data were processed

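ChIP-seq was measured in MRC5 cells. The deposited table holds raw counts of reads per promoter window with no normalization, per the file headers and values. Tools listed in the submitters' processing notes are MACS2, featureCounts, bedtools and BWA 0.7.17-r1188, with hg38 as build and no roles given. Signal in the outer 500 positions of the deposited profile around start sites, summed by the authors over genes and unscaled for depth, served 1 alternative scaling only.

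Symbols came by position: a window took the nearest protein-coding RefSeq gene start (GRCh38.p14) on its strand within 1000 bp of its centre. This named 16958 of 19957 windows (85.0%) with 34 bp as the median distance. After a shift of 20000 bp, 4.43% matched. Promoter sequences are RefSeq's, and 13196 windows had one.

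Counts were tested with edgeR 4.0.16 (R 4.3.3): a filterByExpr minimum of 10 counts, TMM, quasi-likelihood F-tests with 2 residual degrees of freedom, Benjamini-Hochberg adjustment over 15726 windows and a threshold of 0.05. The fit added 19.4 prior degrees of freedom, so the error behind each p and SE was mostly pooled over windows. SEs came from the fold change and F. Scripts were tested on simulated data. Members, lists and rules were chosen with earlier results of these data known. Named were the 12 largest called windows each way (both NuMA libraries beyond both inputs, at least 30 counts in each library of the higher group, protein-coding symbol that is no clone name, 1 of any with identical counts), each list's highest and lowest tested member, 9 fixed genes (NUMA1, TDP1, XRCC1, PARP1, OGG1, JUN, FOS, EGR1, POLR2A), and list members with no NuMA count and at least 10 counts in each input. 1 of the largest lower windows is not reported in the text. Alternatives were DESeq2 1.42.0, limma-trend (limma 3.58.1), other scalings, filters and thresholds, thinning, a GC offset, all 6 libraries and each library left out.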

Additional observations from a re-analysis of the deposited data

How the results depend on the processing

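With each library left out in turn, windows called higher numbered 1346 to 4413 and windows called lower 850 to 4021, with the fewest without the NuMA-arm input and the most without NuMA library 2. DESeq2 called 2688 higher and 1571 lower, total-count scaling 2387 and 4591, and a test above 1.5-fold 2543 and 1859. No count filter gave 3560 and 3292, thinning to the smallest total 3702 and 2859, and limma-trend 3746 and 2808. In 10565 windows with a promoter sequence, a GC offset gave 1739 higher and 1411 lower calls, and kept 1444 of 2631 higher and 998 of 1865 lower calls. The sign was kept by 2483 of these 2631 and by all 1865. That check is void for the whole comparison, because 67.2% of tested windows have a sequence and 80% are needed. Its offset was drawn from the same fold changes, so it also takes out any rise of NuMA binding with GC. The median log2 fold change of the highest of 5 GC bins was 0.82, and it was 0.37 for the highest bin of CpG observed over expected, 0.60 with at least 30 counts and 0.56 to 0.90 with each library left out. In the lowest bin it was -0.68, and -1.02 with at least 30 counts. The filter of 30 counts lets a window in through the group where it is high, so its values are partly set by that choice. The cause of these shifts was not tested. Of 66 named genes that were called, 51 had a result with the GC offset, of which 4 lost the call and DYNC1H1 changed sign, to -0.024. No sign changed among them in the other fits listed here. Calls were lost by 10 under DESeq2, 3 on total-count scaling, 2 on flank scaling, 5 of 65 without NuMA library 1, 1 of 66 without NuMA library 2, 20 of 65 without the NuMA-arm input and 17 of 65 without the IgG-arm input. No paired analysis was possible because both inputs carry replicate number 1 only, so the groups share fewer than 2 numbers. Windows with few input counts, such as those of olfactory receptors and overlapping promoters, have the least depth and the least power to be called.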
